A study of Mus musculus with 8 samples.

Results

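In the cortex of mice with narrowed carotid arteries, 1045 distal intergenic stretches of chromatin carried an ATAC-seq peak in all 4 BCAS libraries and in none of the 4 sham libraries. They were chosen by that pattern. Peaks of the 8 lists were merged into 197916 regions wherever they overlapped by 1 bp or more, 3206 of these had a peak in every BCAS library and in no sham library, and 1045 of the 3206 (32.6%) had a midpoint more than 3 kb from any TSS, outside every transcript and more than 300 bp past any transcript end in GENCODE. These are called distal BCAS-only regions here. They made up 1.61% of the 65011 distal intergenic regions of the series, of which 21562 were open in all 8 libraries and 66 had the opposite pattern, with a peak in all 4 sham and in no BCAS library.

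The mice were C57BL/6 males aged 14 weeks at collection, 3 weeks after surgery, with 1 library per mouse. In the BCAS group (bilateral carotid artery stenosis, a model of chronic cerebral hypoperfusion) a coil of 0.16 mm was placed on the right and one of 0.18 mm on the left common carotid artery. Sham mice had their arteries exposed without coils, so both groups carry anaesthesia and neck surgery. The labels name the right cerebral cortex, whereas the study's quality table describes cortex from the brain without cerebellum and olfactory bulb, so the side sampled is not certain. Nuclei of all cell types were taken, and more cells of a type cannot be told apart from more open chromatin per cell.

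ATAC-seq uses the transposase Tn5, which cuts where DNA is not packed in nucleosomes, so a peak marks open chromatin. Distal intergenic peaks are mostly enhancers, stretches bound by transcription factors that act on promoters at a distance, and they differ between cell types far more than promoters do. In microglia, the resident macrophages of the brain, the ETS factor PU.1 (the product of Spi1) opens much of the enhancer repertoire together with factors such as IRF8, RUNX1 and C/EBP proteins. Neuronal enhancers often carry AP-1 and bHLH (NEUROD) sites.

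The sequence letters at the summits of distal BCAS-only regions carried one short word far more often than those of other distal regions. The ETS word GAGGAAGT, the core of the PU.1 site, or its reverse complement occurred no farther than 100 bp from the summit in 158 of the 1045 regions (15.1%, Wilson 95% interval 13.1 to 17.4%). It lay there in 2.80% of all distal intergenic regions and in 1.89% of those open in all 8 libraries (1.72 to 2.08%). Among the 66 distal sham-only regions 2 (3.03%) had it. All intervals on shares of regions cover counting error only, and regions are not replicates. The 121 bases centred on the summit are printed for 6 regions that hold the word, because their nearest genes are on the microglial or blood-lineage lists or are nearest to the most regions. Bases are from GRCm38 (RefSeq), plus strand, 5′ to 3′, with the PU.1 word in capitals.
Spp1 region, chr5:104425982-104426102: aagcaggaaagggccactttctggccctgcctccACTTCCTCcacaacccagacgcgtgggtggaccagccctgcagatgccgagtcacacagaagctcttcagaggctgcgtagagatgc
Lgals3 region, chr14:47359717-47359837: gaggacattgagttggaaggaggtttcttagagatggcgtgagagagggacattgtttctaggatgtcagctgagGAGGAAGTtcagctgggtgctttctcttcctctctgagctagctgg
Cebpa region, chr7:35150978-35151098: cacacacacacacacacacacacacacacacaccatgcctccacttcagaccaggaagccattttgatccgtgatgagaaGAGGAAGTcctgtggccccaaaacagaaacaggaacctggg
Cxcr4 region, chr1:128712989-128713109: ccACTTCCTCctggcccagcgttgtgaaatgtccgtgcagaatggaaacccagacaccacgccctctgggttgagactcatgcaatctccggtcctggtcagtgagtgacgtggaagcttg
Azin1 region, chr15:38468405-38468525: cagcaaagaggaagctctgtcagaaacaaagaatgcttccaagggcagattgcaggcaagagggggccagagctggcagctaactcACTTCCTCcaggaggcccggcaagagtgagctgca
Tmem184b region, chr15:79414733-79414853: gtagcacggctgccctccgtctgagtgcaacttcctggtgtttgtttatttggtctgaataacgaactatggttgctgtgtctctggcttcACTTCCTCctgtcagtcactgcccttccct

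These 6 windows show the word on either strand and at varied places. The Lgals3 and Cebpa windows hold it as GAGGAAGT, and the Spp1, Cxcr4, Azin1 and Tmem184b windows hold its reverse complement ACTTCCTC. Over all 158 regions there were 171 matches, 82 of them on the plus strand. Their median distance from the summit was 34.5 bp, against 39.5 bp for the 1704 matches in other distal regions, and 39.8% lay within 25 bp of the summit, against 32.0%. Of the 158 regions 9 held the word more than once. The base just before GAGGAAGT was C in 2.92% of matches in distal BCAS-only regions and 2.76% elsewhere, and G followed it in 40.4% and 44.3%. The base before that was A in 45.03% and 35.04% of matches and G in 16.96% and 24.6%, which is given as a description of 171 and 1704 matches.

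The peaks in these regions differed in length and rank among the 4 BCAS mice. The peak within a region had a median length of 311 bp in BCAS 1, 276 bp in BCAS 2, 294 bp in BCAS 3 and 271 bp in BCAS 4. The authors' fold enrichment at the summit, a ratio over the local background, had medians of 6.39, 5.43, 5.86 and 5.28 in the same order. Ranked by −log10 q within its own list, the median region stood at percentile 52.2 in BCAS 1, 41.3 in BCAS 2, 47.5 in BCAS 3 and 36.6 in BCAS 4. Distal regions open in all 8 libraries had medians of 73.7, 67.0, 63.5 and 64.2, so distal BCAS-only regions were weaker than constitutive distal regions in each BCAS list. These values belong to the contrast that chose the regions and are a description.

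**Figure D1:**
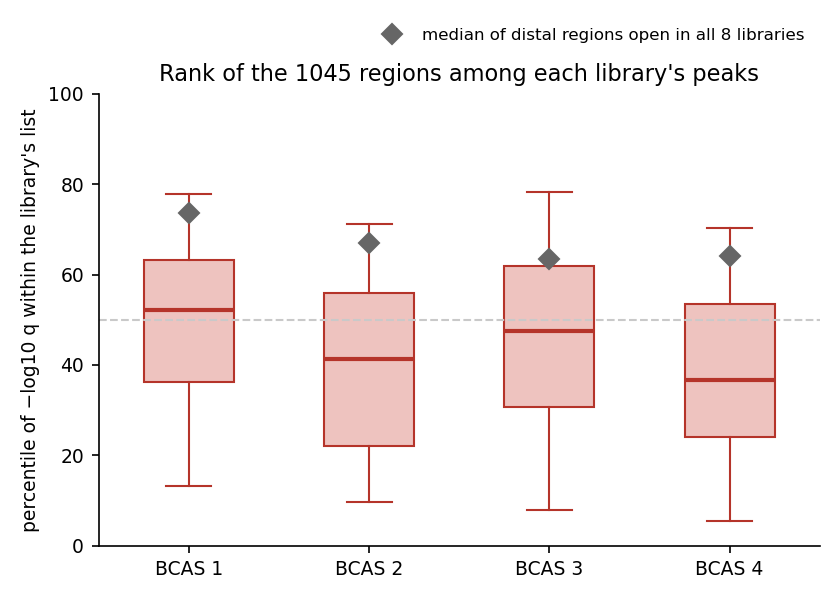
Percentile of the −log10 q of each of the 1045 distal BCAS-only regions within the peak list of each BCAS library (box, quartiles with the median; whiskers, 5th to 95th percentile). Grey diamonds give the median of distal regions open in all 8 libraries, which lies above the box median in every library (73.7 against 52.2 in BCAS 1).

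The 4 BCAS libraries ranked the regions alike only in part. Spearman's rho across the 1045 regions was between 0.49 and 0.60 for the 6 pairs of libraries, given as a description since the regions share a depth within each library. In 735 regions (70.3%) the −log10 q was at least 5 in all 4 libraries. In 165 regions (15.8%) it was above the list median in all 4, and in 295 (28.2%) it was below the median in all 4. Many regions thus ranked low in at least 1 mouse, and 522 (49.95%) had a percentile under 25 in at least 1 list. Merged over libraries the regions were 228 to 1267 bp long with a median of 361 bp, against 563 bp for distal regions open in all 8 libraries.

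The rule has a threshold at each library, and many regions lay just past it. Among distal regions with a peak in all 4 BCAS libraries, 1045 had no sham peak, 745 had 1, 1309 had 2, 2786 had 3 and 21562 had all 4. Among distal regions with no sham peak, 6725 had a peak in 1 BCAS library, 2040 in 2, 1058 in 3 and 1045 in 4. Distal regions with no BCAS peak numbered 5465, 1360, 320 and 66 for 1 to 4 sham libraries. Of the 745 regions with a single sham peak, sham 3 held it in 322, sham 4 in 217, sham 2 in 181 and sham 1 in 25. Of the 1058 that missed 1 BCAS library, BCAS 4 was the one missed in 449, BCAS 2 in 282, BCAS 3 in 277 and BCAS 1 in 50. Sham 3 and BCAS 1 have the longest lists of their groups, and sham 1 and BCAS 4 the shortest. The libraries between them did not follow list length, since sham 4 has a shorter list than sham 2 and held the single peak more often. List lengths ranged from 107391 to 144988 peaks in sham and from 119565 to 160720 in BCAS libraries. The files hold peaks and no read counts, so a region with no sham peak can still hold reads below the calling threshold.

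The choice was then repeated on 3 BCAS and 3 sham libraries and read in the BCAS and the sham library left out, for all 16 pairs. Between 1125 and 2016 distal regions were chosen. The held-out BCAS library had a peak in 67.8 to 95.9% of them (mean 80.4%) and the held-out sham library in 2.43 to 25.9% (mean 14.9%). The BCAS library was higher in 16 of 16 pairs, by 41.9 to 92.4 percentage points. BCAS 1 stood at 94.6 to 95.9%, BCAS 2 at 76.8 to 80.4%, BCAS 3 at 76.6 to 80.5% and BCAS 4 at 67.8 to 71.5%. Sham 1 stood at 2.43 to 3.22%, sham 2 at 15.1 to 16.4%, sham 3 at 24.2 to 25.9% and sham 4 at 15.4 to 16.8%. The longest list of each group gave the highest share, while sham 4, with a list close in length to that of sham 1, was near sham 2. The mirror choice, distal regions with a peak in 3 sham and no BCAS library, gave 90 to 880 regions. The held-out sham library had a peak in 56.0% of these on average and the held-out BCAS library in 39.1%, with sham higher in 12 of 16 pairs. The 16 pairs share libraries, so no p was computed.

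The share of all peaks that were distal intergenic was close in both groups. It was 30.7, 32.2, 33.1 and 31.4% for the sham mice in numerical order and 32.1, 31.7, 30.97 and 31.7% for the BCAS mice, and the groups overlapped. The means were 31.6 ± 0.49% in BCAS and 31.9 ± 1.0% in sham libraries (SD, n = 4 each; exact two-sided permutation test, p = 0.771). The distal BCAS-only regions are thus set against a distal compartment of similar share. The direction of that small difference turned when sham 3 was left out, to 0.17 points higher in BCAS libraries (exact permutation p = 0.686).

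Distal BCAS-only regions lay closer to genes than other distal regions. The median distance from the midpoint to the nearest protein-coding TSS was 33.4 kb, against 71.4 kb for all distal intergenic regions, 66.5 kb for those open in all 8 libraries and 162 kb for the 66 distal sham-only regions. The quartiles were 14.4 and 79.9 kb and the extremes 3.07 and 1748 kb. Within 10 kb of a TSS lay 171 regions (16.4%, against 9.41% of all distal regions) and beyond 300 kb lay 34 (3.25%, against 17.3%). Upstream of the nearest gene lay 690 regions (66.03%), against 61.0% of all distal regions. Counting the TSS of every annotated gene, non-coding ones included, the median distance was 16.9 kb, against 23.5 kb.

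**Figure D2:**
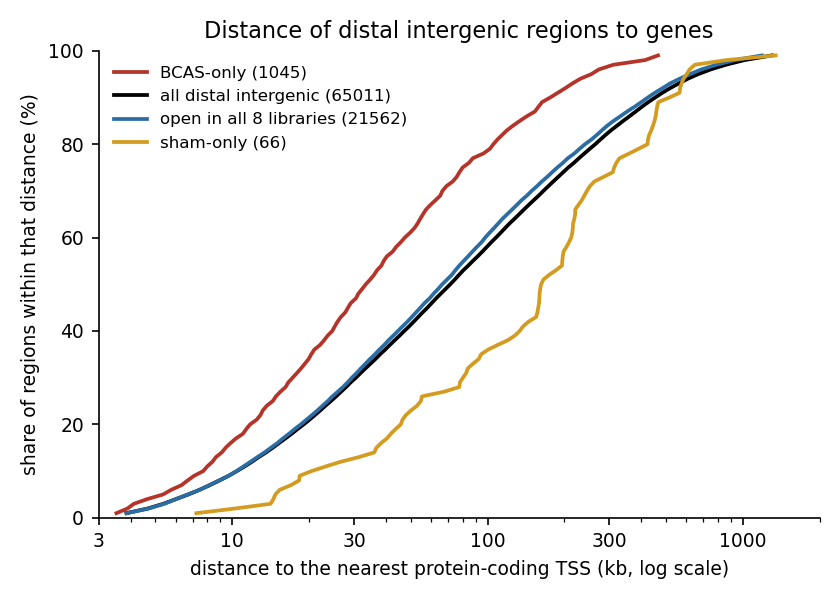
Cumulative share of regions (%) by distance to the nearest protein-coding TSS (kb, log axis) for the 4 classes of distal intergenic region, with their numbers in the key. The curve of the 1045 BCAS-only regions lies left of the others and crosses 50% at 33.4 kb, against 71.4 kb for all distal intergenic regions.

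At the 3 kb limit itself, the members just inside lay 3022 bp from a TSS of I730030J21Rik (chr15:100735600-100735918) and 3031 bp from Rps12-ps24 (chr8:36028576-36028991). Just outside, and therefore left out, lay BCAS-only regions 2950 bp from Fam3c (chr6:22359055-22359331) and 2939 bp from Gm18445 (chr1:174004740-174005081). In all, 212 BCAS-only regions outside transcripts were within 3 kb of a TSS and 66 members lay 3 to 4 kb from one.

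The regions also sat near each other. Of the 1045, 408 (39.04%) had another BCAS-only region of any kind within 50 kb, against 13.9% of all distal intergenic regions, and 205 (19.6%) had another distal BCAS-only region within 20 kb, against 4.78%. Joining those closer than 20 kb gave 840 single regions, 74 pairs and 19 runs of 3. Several runs lay beside genes of immune signalling, and those named here were picked after their genes had been seen. The run at Ccl5, a chemokine that draws T cells and monocytes, spanned 9.72 kb (chr11:83540985-83550703). The run at Ccr1, a receptor for such chemokines, spanned 11.9 kb (chr9:123942054-123953933), that at Cxcr4, the receptor for CXCL12, 17.5 kb, and that at Rel, an NF-κB subunit, 17.8 kb (chr11:23805816-23823613). The most compact run, of 3.30 kb, was at Pik3cb, a catalytic subunit of PI3-kinase (chr9:99180331-99183633). By chromosome, chromosome 7 held the highest share of its distal regions in the set (69 of 2328, 2.96%), chromosome X held 14 of 1790 (0.78%) and chromosome Y 0 of 46. A count of 0 of 46 distal regions is too few to place chromosome Y apart from the 1.61% of the whole series.

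The 1045 regions had 850 different nearest protein-coding genes, and 709 of these were nearest to a single region. Arrdc4, which encodes an arrestin-domain protein, was nearest to 6 regions, the most of any gene. Id2 (an inhibitor of bHLH factors) and Klhl25 (a substrate adaptor of a ubiquitin ligase) were among those nearest to 5. Ch25h (cholesterol 25-hydroxylase, induced in activated macrophages), Kctd12 (an auxiliary subunit of GABA-B receptors) and Cxcr4 were nearest to 4. Tmem184b, Atp13a3 and Azin1 were nearest to 3, which for Tmem184b were all 3 of the distal regions it was nearest to in the series. For Ch25h it was 4 of 9 and for Atp13a3 3 of 4, whereas for Kctd12 it was 4 of 48. The nearest gene need not be the one an enhancer acts on.

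At Arrdc4 all 6 lay downstream of the TSS, between 65.8 and 156 kb away. The strongest of the 6 (chr7:68593726-68594366) had peaks of 579, 525, 641 and 511 bp at percentiles 83.7, 56.0, 78.5 and 54.8. At Cxcr4 all 4 lay upstream, from 113 to 211 kb. The region printed above (chr1:128712573-128713274) was the strongest of the 4, with fold enrichments of 13.5, 10.2, 12.9 and 9.14 and percentiles of 87.2, 77.2, 86.8 and 71.4 in BCAS 1 to 4. At Ch25h the region 27.1 kb downstream (chr19:34447712-34448382) was even across mice, at percentiles 66.3, 67.0, 66.8 and 68.1. The other 3 regions at Ch25h were lower and less even, from percentile 4.97 to 67.0.

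Genes of myeloid identity were well represented among the nearest genes, though some of the regions lay far from the gene. Those nearest to Cebpb, Maf, Runx1, Sall1, Igf1 and Ank lay 111 to 365 kb from the TSS. Of 30 blood-lineage transcription factors, 10 (33.3%) were nearest to at least 1 distal BCAS-only region, against 850 of 21911 protein-coding symbols (3.88%). Among them were Spi1, Irf4, Irf5, Runx1, Cebpa, Cebpb, Maf, Bhlhe40 and Tal1, and the 10 were together nearest to 15 regions. Of 24 disease-associated microglia genes, a set described in plaque-associated microglia, 7 (29.2%) were nearest genes, among them Spp1, Lgals3, Gpnmb, Igf1, Ctsb and Ctsl. Of 25 microglia genes 5 (20%) were, and of 11 phagocytosis genes named by the study 2 (18.2%). The phagocytosis list was chosen by the study on these mice and is not independent evidence. Of 25 interferon-stimulated genes 1 (4.00%) was a nearest gene, of 20 genes of border macrophages, monocytes and neutrophils 2 (10%), of 15 endothelial genes 3 (20%), of 14 hypoxia genes 3 (21.4%), of 15 genes each of inhibitory neurons, reactive astrocytes and activity-regulated genes 2 (13.3%), of 15 genes each of excitatory neurons, astrocytes and mural cells with fibroblasts 1 (6.67%), and of 18 lymphocyte genes, 15 oligodendrocyte genes and 10 liver genes 0. Genes differ in how many distal regions of any kind they are nearest to. The blood-lineage factors were nearest to 1.44% of the distal BCAS-only regions and 0.36% of all distal regions, disease-associated microglia genes to 0.67 and 0.18%, microglia genes to 0.67 and 0.20%, endothelial genes to 0.29 and 0.20%, hypoxia genes to 0.29 and 0.13%, and inhibitory neuron genes to 0.29 and 0.15%.

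Among the factors, Irf5, which drives inflammatory macrophage genes, had the region closest to its TSS of all listed genes. That region lay 3.09 kb upstream (chr6:29523347-29523719) and had peaks of 360, 301, 359 and 323 bp in BCAS 1 to 4. Cebpa, a factor of myeloid commitment, had a pair of regions. The one 6.29 kb upstream (chr7:35112701-35113310) was uneven, with peaks of 291, 393, 610 and 201 bp and percentiles from 4.97 to 62.1, and the one 31.7 kb downstream (chr7:35150806-35151256), which holds the PU.1 word, was even, with peaks of 418, 406, 426 and 394 bp and percentiles from 67.0 to 75.5. Spi1 had a region 9.57 kb upstream (chr2:91086370-91086680) with peaks of 298, 259, 295 and 269 bp and percentiles of 62.8, 62.6, 66.9 and 53.6. Irf4 had a region 10.6 kb upstream, and Tal1, a factor of blood stem cells and erythroid cells, one 8.43 kb upstream. Cebpb, Maf and Runx1 were reached only over longer distances. These were 111 kb for Cebpb, 125 kb and more for Maf and 203 kb and more for Runx1.

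Among microglial effector genes, Ctss, which encodes the lysosomal protease cathepsin S, had a region 5.397 kb upstream (chr3:95521240-95521538) with peaks of 248, 291, 267 and 200 bp. The region 9.05 kb upstream of Spp1, which encodes osteopontin (chr5:104425865-104426274), had peaks of 340, 282, 266 and 363 bp and fold enrichments of 10.7, 8.82, 7.10 and 8.79. Itgam, the αM integrin chain CD11b, had a region 9.38 kb upstream (chr7:128053108-128053410) with short peaks of 223, 200, 291 and 263 bp. Lgals3, which encodes galectin-3, had one 14.03 kb upstream with peaks of 272, 243, 315 and 248 bp. Ctsb, Gpnmb and Ctsl, which act in or on lysosomes, had theirs at 19.3, 23.4 and 27.4 kb upstream, the last at percentiles from 13.1 to 26.0. Slc2a5, a fructose transporter used as a microglial marker, had one at 8.73 kb, and Pik3cg, a PI3-kinase subunit of leukocytes, one upstream at 6.67 kb and one downstream at 42.1 kb. Ifitm3, an antiviral membrane protein and the only gene of the interferon-stimulated list that was a nearest gene, had a pair about 12 kb downstream. The longer of the pair (chr7:140998841-140999694) had peaks of 854, 653, 723 and 732 bp, the longest of the 20 listed regions in each of the 4 libraries.

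The region with the highest lowest percentile over the 4 BCAS lists lay 6.62 kb upstream of F13a1, the A chain of coagulation factor XIII, which tissue and perivascular macrophages express (chr13:37056611-37057119). Its peaks were 480, 406, 477 and 461 bp long, with fold enrichments of 15.98, 15.27, 14.94 and 11.96 and percentiles of 90.4, 90.1, 89.8 and 83.4. The 121 bases at its summit are printed because it ranked first by this measure, which reads the BCAS lists only. They hold no PU.1 word, and hence no capitals.
F13a1 region, chr13:37056863-37056983: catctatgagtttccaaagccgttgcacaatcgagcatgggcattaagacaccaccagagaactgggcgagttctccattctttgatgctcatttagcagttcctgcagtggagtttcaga

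The next 9 by this measure were near Pon2, C1qtnf3, Glrx3, Dyrk2, Cenpc1, Rbpj, Tlr2, Ccl5 and Rpl9-ps1. Their lowest percentiles ran from 73.4 to 81.1. The region 43.6 kb upstream of Tlr2, a receptor for bacterial lipoproteins (chr3:83885082-83885595), had peaks of 509, 510, 477 and 459 bp, and the region 13.96 kb upstream of Ccl5 (chr11:83544269-83544693) peaks of 425, 338, 372 and 331 bp. None of the 10 held the PU.1 word within 100 bp of the summit, while 3 (Pon2, Dyrk2 and Rbpj) held the AP-1 word, those at F13a1 and Rpl9-ps1 a C/EBP word, that at Rbpj also a RUNX word and that at C1qtnf3 the composite PU.1-IRF word and an IRF word.

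Other words of myeloid factors were also more frequent in distal BCAS-only regions than in distal regions as a whole. The PU.1-IRF composite GGAANTGAA was found in 98 regions (9.38%, against 2.20%), the RUNX word AACCACA in 94 (8.995%, against 4.64%), the C/EBP word TTGCNNAA in 170 (16.3%, against 11.1%), the IRF word GAAANNGAA in 109 (10.4%, against 7.40%), the NF-κB word GGGANTTTC in 17 (1.63%, against 0.73%) and the general ETS word CCGGAAGT in 10 (0.96%, against 0.22%). Of the 66 distal sham-only regions 6 (9.09%, interval 4.23 to 18.4%) held the RUNX word, a share like that of the BCAS-only regions. Each word was searched on both strands, and the PU.1 and PU.1-IRF words share the letters GGAA. At least 1 of the PU.1, ETS, PU.1-IRF, IRF, RUNX and C/EBP words was present in 499 regions (47.8%), against 25.4% of all distal regions. None of the 16 words searched was present in 422 (40.4%), against 51.3%.

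The AP-1, NEUROD and RFX words went the other way. The AP-1 word TGANTCA was found in 124 regions (11.9%, interval 10.04 to 13.97%), against 17.0% of all distal regions and 18.7% of those open in all 8 libraries. The AP-1 share within the set was 11.5, 9.96, 10.7 and 15.3% from the lowest to the highest of 4 equal classes by lowest percentile. The NEUROD word CAGATGG was found in 59 (5.65%, against 10.5%) and the RFX word GTTGCCATG in 2 (0.19%, against 0.93%). For the MEF2 (CTAAAAATA), SOX (CCATTGTT), TEAD (ACATTCCA), EGR1 (GCGTGGGCG), SP1 (GGGGCGGGG) and CTCF (AGGGGGCGC) words, the interval of the distal BCAS-only regions held the share of all distal regions.

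**Figure D3:**
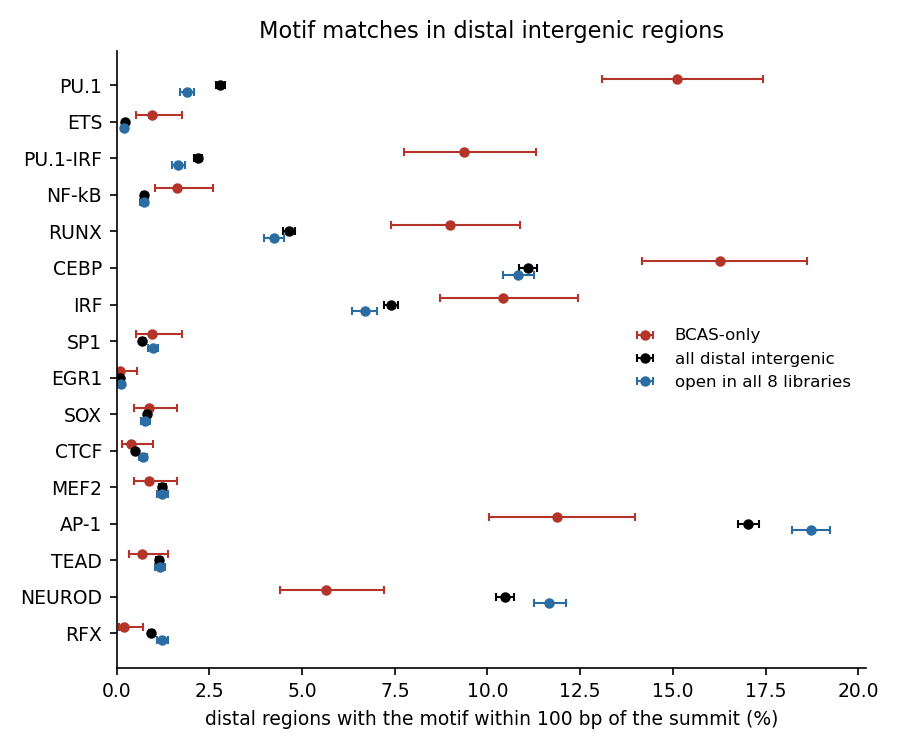
Share of distal intergenic regions (%) with each of the 16 words within 100 bp of the summit, ordered by the ratio of BCAS-only to all distal regions, with Wilson 95% intervals. The PU.1 word shows the widest gap, with 15.1% of BCAS-only regions, 2.80% of all distal regions and 1.89% of those open in all 8 libraries.

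Base composition differed too, and the PU.1 share was higher than in other distal regions at every level of GC content. The median GC content of the sequence within 100 bp of the summit was 50.2% in distal BCAS-only regions, 47.3% in all distal regions and 48.8% in those open in all 8 libraries. With all distal regions split into 3 classes of GC content, within the lowest class the PU.1 word was present in 13% of 100 distal BCAS-only regions and 1.70% of all distal regions, within the middle class in 14.2% of 400 and 3.13%, and within the highest class in 16.1% of 545 and 3.51%. Repeats covered 11.7% of the bases on average, against 11.6% over all distal regions. Of the 171 PU.1 matches 20.5% lay in repeats, against 15.04% of the matches in all distal regions.

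The share with the PU.1 word followed the number of libraries with a peak. Among distal regions with a peak in all 4 BCAS libraries it was 15.1% with no sham peak, 11.9% with 1, 6.57% with 2, 3.73% with 3 and 1.89% with all 4. Among regions with no sham peak it was 3.42, 6.27, 11.5 and 15.1% for peaks in 1, 2, 3 and 4 BCAS libraries. Regions that missed the rule by 1 library therefore had shares near those of the members. Within the set, the share was 9.92% in the lowest of 4 equal classes by minimum percentile, then 13.03, 16.5 and 21.1% in the classes above. In each BCAS library the median percentile was higher for the 158 regions with the word than for the 887 without, at 57.1 against 51.2 in BCAS 1, 48.8 against 39.9 in BCAS 2, 52.2 against 46.1 in BCAS 3 and 42.0 against 36.6 in BCAS 4. Their peaks were of like length, for example 273 against 271 bp in BCAS 4, and their median distance to a TSS was 27.3 kb against 33.8 kb.

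A search over all words of 8 bases, in which reverse complements are joined, found 1696 words present in at least 20 distal BCAS-only regions. The one with the highest ratio to all distal regions was the PU.1 word itself (158 regions, 5.41 times). The next 9 were CTGACCCC (27 regions, 5.33 times), AGAGGTCA (30, 4.86 times), AAGAGGAA (168, 4.84 times), AAGTGACC (21, 4.75 times), GGGAAGTA (42, 4.58 times), AGTTCCTC (70, 4.55 times), GGAAGTAA (42, 4.50 times), GAAGTGAA (72, 4.41 times) and AGTTCCCC (33, 4.38 times). Among the 30 highest words 15 held GGAA or TTCC, the centre of ETS sites, and 11 held GGTCA or TGACC. These letters are part of AGGTCA and GGGTCA, half-sites of nuclear receptors such as LXR, RXR and the retinoic acid receptors. Not all of the 11 words hold a full half-site. In TGACCACA, T precedes GGTCA on the other strand, and its letters ACCACA are also part of the RUNX word AACCACA. Which factors bind these words was not tested. No word among the 1696 had a ratio of 0.5 or less.

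The half-site words AGGTCA and GGGTCA were then counted on their own, a choice made after the list of words had been seen. AGGTCA was present in 184 distal BCAS-only regions (17.6%, interval 15.4 to 20.03%), against 6.68% of all distal regions and 5.12% of those open in all 8 libraries, and GGGTCA in 144 (13.8%, 11.8 to 16.003%), against 4.83 and 4.26%. One or the other was present in 305 (29.2%), against 11.04%. AGGTCA was about as frequent in regions with the PU.1 word (19.6%) as in those without (17.2%), and 31 regions held both. At least 1 of PU.1, AGGTCA and GGGTCA was found in 413 regions (39.5%), against 13.3% of all distal regions. Only 6.50% of the AGGTCA matches lay in repeats. By number of sham libraries AGGTCA followed the same order as PU.1 (17.6, 13.6, 11.3, 9.33 and 5.12% for 0 to 4), but in regions with no sham peak it was already 10.2% with a single BCAS peak and differed less with the strength of the region (16.03, 18.4, 17.2 and 18.8% from the lowest to the highest of the same 4 classes). Windows of 4 listed regions are printed with the half-site words, on either strand, in capitals. They are shown because words with GGTCA or TGACC came second to the ETS words in the search.
Csf3r region, chr4:126017773-126017893: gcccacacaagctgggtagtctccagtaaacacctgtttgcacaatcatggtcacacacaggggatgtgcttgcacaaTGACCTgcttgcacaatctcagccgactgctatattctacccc
Irf4 region, chr13:30738589-30738709: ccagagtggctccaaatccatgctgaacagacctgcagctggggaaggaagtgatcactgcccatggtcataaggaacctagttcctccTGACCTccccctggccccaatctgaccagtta
Ch25h region, chr19:34464596-34464716: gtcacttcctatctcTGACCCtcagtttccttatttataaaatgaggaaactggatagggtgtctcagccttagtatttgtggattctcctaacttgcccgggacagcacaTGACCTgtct
C1qtnf3 region, chr15:10876475-10876595: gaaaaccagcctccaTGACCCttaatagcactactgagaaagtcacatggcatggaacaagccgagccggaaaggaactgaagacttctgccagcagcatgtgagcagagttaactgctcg

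**Figure D4:**
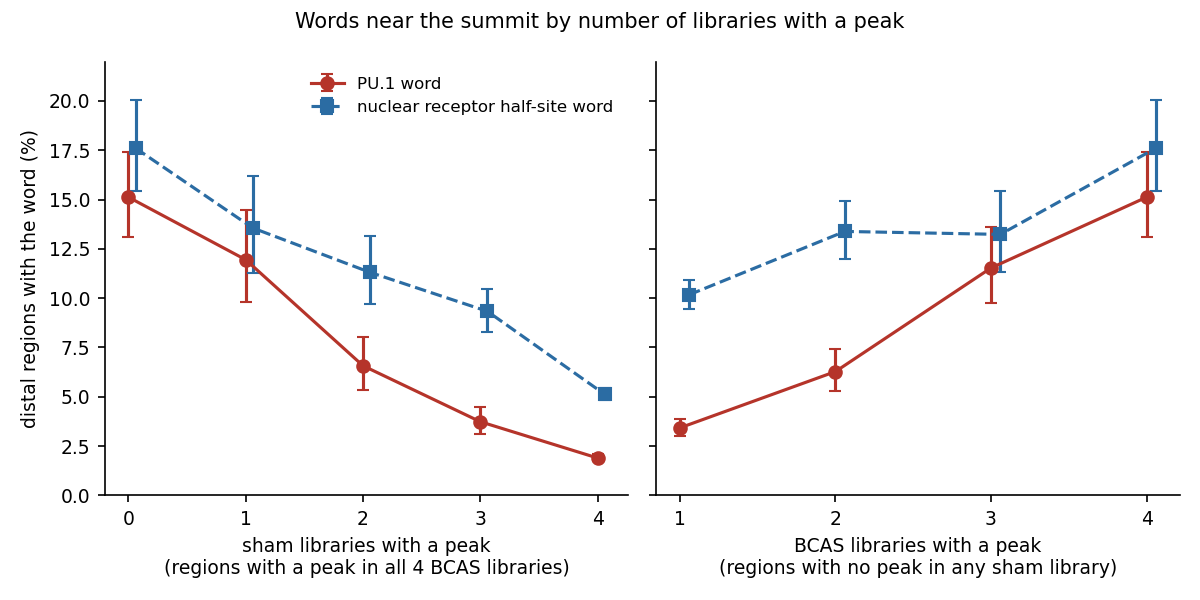
Share of distal intergenic regions (%) with the PU.1 word (circles) or the nuclear receptor half-site word AGGTCA (squares), by the number of sham libraries with a peak among regions open in all 4 BCAS libraries (left) and by the number of BCAS libraries with a peak among regions with no sham peak (right). Bars are Wilson 95% intervals. The PU.1 share goes from 1.89% with 4 sham peaks to 15.1% with none.

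The remaining distal peaks were then compared between mice with 1 value per library. They still hold the regions that missed the rule by 1 library. In these the PU.1 share was 11.9% (4 BCAS peaks and 1 sham peak) and 11.5% (3 BCAS peaks and no sham peak). The comparison is therefore not independent of the pattern that chose the set. After the distal BCAS-only regions were removed, the PU.1 word lay within 100 bp of the summit in 1.89, 1.96, 2.02 and 2.26% of the distal peaks of sham 1 to 4, against 2.70, 2.58, 2.75 and 2.61% for BCAS 1 to 4. Every BCAS library was above every sham library. The means were 2.66 ± 0.080% and 2.03 ± 0.159% (SD, n = 4 each), a difference of 0.63 percentage points. The exact two-sided permutation p was 0.0286, the smallest that 4 against 4 allows, and 0.0914 after Benjamini-Hochberg adjustment over the 16 words, so the difference did not pass at 0.05. The PU.1-IRF (2.16 ± 0.054% in BCAS, 1.84 ± 0.111% in sham), RUNX (4.54 ± 0.063%, 4.26 ± 0.042%), ETS and, lower in BCAS, AP-1 words (16.9 ± 0.46%, 18.4 ± 0.37%) also did not overlap between groups and had the same exact and adjusted p. The C/EBP word (10.9% in both groups) and the IRF word (7.13 and 7.17%) differed by less than the SD between libraries. AGGTCA was present in 6.02 to 7.10% of these peaks in BCAS and 5.10 to 5.38% in sham libraries, values chosen after the words had been seen and given with no test.

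**Figure D5:**
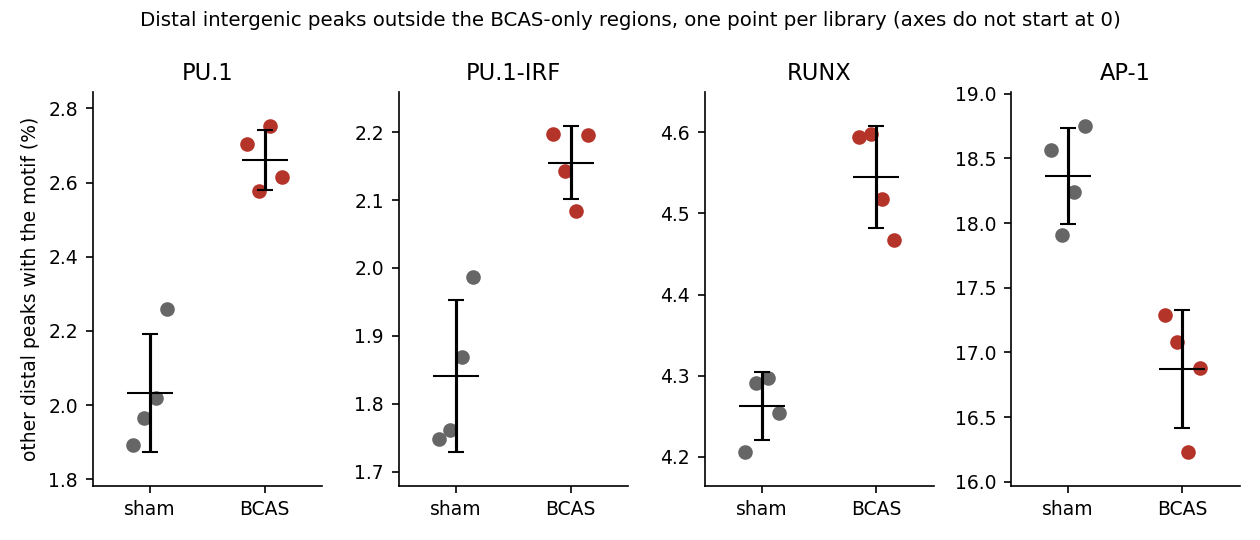
Share (%) of distal intergenic peaks outside the distal BCAS-only regions with the PU.1, PU.1-IRF, RUNX or AP-1 word within 100 bp of the summit, with 1 point per library and the mean ± SD. Axes do not start at 0. For PU.1 the sham libraries lie between 1.89 and 2.26% and the BCAS libraries between 2.58 and 2.75%.

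By the study's quality table the libraries fall into a pair of classes of read GC content, sham 1 to 3 with BCAS 1 and sham 4 with BCAS 2 to 4, so class and group are partly confounded. Within the first class the PU.1 share was 2.70% in BCAS 1 against at most 2.02% in sham 1 to 3, and within the second it was 2.58% or more in BCAS 2 to 4 against 2.26% in sham 4. The AP-1 share was 17.3% in BCAS 1 against 17.9% or more in sham 1 to 3, and 17.1% or less in BCAS 2 to 4 against 18.7% in sham 4. The part of read GC class in these differences was not tested. Each class holds a single library of one group, so no test within a class was made.

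Genes near the distal BCAS-only regions were last examined through the rest of their loci, that is the gene body and 3 kb on each side, with the DNA of the distal BCAS-only regions removed. The value was the length covered by peaks, scaled to the total of the library. Of the 850 nearest genes 770 had a mean of at least 200 bp and were tested among 17032 genes with limma on log2(length + 200 bp). Of the 770, 52 (6.75%) were covered for a longer length in BCAS than in sham libraries at an adjusted p under 0.05, and 3 (0.39%) for a shorter length, namely Treml1, Gpc5 and Myc. Over all 17032 genes the same test called 3.15% longer (536 genes) and 0.341% shorter (58 genes). The median log2 difference was 0.04 over the 770 and 0.01 over all genes. The contrast is the one that chose the regions, so the 6.75% stands beside the 3.15% as a description. Some of the 52 passed the minimum of 200 bp only through the BCAS libraries, and their calls are given no weight. Examples are Oasl1 (mean 0 bp in sham, 572 bp in BCAS libraries) and Lta (43.3 and 609 bp). Without scaling 13 of 770 nearest genes and 213 of 17057 genes were called longer, so these shares lay closer together than with scaling. Without BCAS 1, 30 of 767 nearest genes and 323 of 16956 genes were called longer. Without BCAS 3 these were 32 of 770 and 288 of 16997.

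Of the 44 tested genes named for a list, for their number of regions or for a strong region, Runx1, Itgam, Irf5 and Ctss were called, all with a longer length in BCAS libraries. Runx1, Fcrls and Pik3cb are named here after their values had been seen. Of the other genes named above for a run, Ccl5, Ccr1, Cxcr4 and Rel were not called (limma adjusted p = 0.213 for Cxcr4 and 0.766 for Ccl5). Pik3cb, named above for its compact run, was covered for 3410 ± 197 bp in sham and 4813 ± 413 bp in BCAS libraries (SD, n = 4; log2 difference 0.47 ± 0.10, SE; limma adjusted p = 0.0102). Runx1, a factor that acts with PU.1 in microglial development, had 2376, 3486, 3083 and 2578 bp covered in sham 1 to 4, against 7504, 6383, 6658 and 5626 bp in BCAS 1 to 4. Its groups did not overlap, and the log2 difference was 1.14 ± 0.12 (SE; limma adjusted p = 0.000171). Itgam had 0, 0, 218 and 0 bp in sham and 1390, 1346, 1113 and 531 bp in BCAS libraries. Its mean passed the minimum of 200 bp only through the BCAS libraries, so its call and p are given no weight. Irf5 had 615, 823, 1089 and 1435 bp in sham and 1470, 2189, 2552 and 2015 bp in BCAS libraries (0.95 ± 0.19, adjusted p = 0.00909). Ctss had 0, 298, 205 and 360 bp in sham and 682, 627, 677 and 613 bp in BCAS libraries (1.13 ± 0.28, adjusted p = 0.0300). In Runx1, Irf5 and Ctss every BCAS library was above every sham library. The calls of Runx1 and Irf5 held when any 1 library was left out, while the adjusted p of Ctss ranged from 0.0119 to 0.0988 and was above 0.05 without sham 3 and without each BCAS library in turn.

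For the other factors and effectors the locus outside the distal BCAS-only region did not pass. Spi1 had 2657, 2832, 2454 and 3192 bp in sham and 2712, 2809, 2892 and 2390 bp in BCAS libraries (log2 difference -0.04 ± 0.11, adjusted p = 0.949), and the groups overlapped. F13a1, beside the strongest region, had 3161 ± 452 bp in sham and 2782 ± 212 bp in BCAS libraries (SD, n = 4; limma adjusted p = 0.582). Ccl5 (427 ± 216 and 311 ± 81.5 bp), Tlr2 (677 ± 194 and 761 ± 229 bp), Spp1 (448 ± 159 and 578 ± 175 bp), Cebpb (1071 ± 73.6 and 1080 ± 199 bp) and Irf4 (623 ± 134 and 643 ± 211 bp) (mean ± SD in sham and then BCAS libraries) differed by less than the SD between sham libraries. Fcrls and Ctsb lay close to the threshold (adjusted p = 0.0569 and 0.0596). The promoters of Slc2a5, Gpnmb and F13a1 held no peak in any library, although each had a distal BCAS-only region upstream. Of the 850 nearest genes 118 (13.9%) also had another BCAS-only region within the locus, against 9.19% of the genes nearest to any distal region.

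The summed lengths at marker genes parted the groups for some cell types and overlapped for others. Over the 25 microglia genes the summed scaled length, distal BCAS-only regions removed, was 29.97 to 40.1 kb in sham and 41.7 to 46.8 kb in BCAS libraries. The 40.1 kb was that of sham 4, while sham 1 to 3 had 29.97 to 32.0 kb. Over the 30 blood-lineage factors it was 54.0 to 59.7 and 71.0 to 74.3 kb. The promoter of 15 of the 25 microglia genes held a peak in all 8 libraries and that of 1, Slc2a5, in none. Endothelial genes (22.7 to 27.1 and 29.3 to 33.8 kb) and reactive astrocyte genes (13.04 to 15.7 and 16.6 to 19.3 kb) also did not overlap, while the other astrocyte genes (45.0 to 48.3 and 44.6 to 50.2 kb) did. Excitatory neuron genes had 43.5 to 46.7 kb in sham and 41.1 to 44.2 kb in BCAS libraries, and 12 of the 15 had a promoter peak in all 8 libraries. Of the genes that define border macrophages, monocytes and neutrophils 16 of 20 had no promoter peak in any library, and of those of lymphocytes 16 of 18. Their summed lengths were 8.89 to 9.66 and 9.81 to 10.4 kb, and 6.84 to 9.06 and 8.83 to 10.6 kb. The part of cell numbers in the distal gains was not tested.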

How the data were processed

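ATAC-seq peaks of 4 sham and 4 BCAS cortices were used, 1 library per mouse. Per the labels, the processing by the authors comprised quality control (FastQC), trimming (Trim Galore), alignment to mm10 (Bowtie2 2.3.4.3), removal of duplicates, sorting (SAMtools 1.9) and MACS2 peak calling on each library alone. For MACS2 options and Tn5 offsets the entry is: not given in the sources used here. Deposited for each peak are an integer score, a fold enrichment (a ratio over local background), a −log10 p and a −log10 q, at lowest 1.31, with a shortest peak of 200 bp. Since read counts were not among the deposited values used, depth is unknown and list length limits what could be seen.

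Peaks on chromosomes 1 to 19, X and Y (1028949) were merged and annotated with GENCODE vM21 basic. Words were searched within 100 bp of the strongest summit on the GRCm38 sequence of RefSeq. Shares of peaks were compared by exact permutation over the 70 labelings of 8 libraries, and covered lengths with limma 3.58.1 in R 4.3.3, after scaling to the library's total, with 200 bp added and a minimum mean of 200 bp. Other steps used Python 3.11.15, numpy 2.4.6, pandas 2.3.3, scipy 1.17.1 and statsmodels 0.14.6. Programs were tested on simulated data. Regions were named by distance for listed genes (20), by number of regions per gene (10), by lowest percentile (10), at the 3 kb limit, and by word ratio (10), and other names were chosen after their values were seen. The members and lists were chosen with earlier results of these data known. Alternatives changed the q threshold, list length, overlap, annotation, window, scaling, pseudocount, filter and replicate block, and left out each library. Some items chosen by these rules are not reported here.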

Additional observations from a re-analysis of the deposited data

Results flagged for a closer look

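In 3 of 77 groups of 4 libraries the lowest library lay far from the other 3 relative to the range of the group. Chance alone marks about 1 in 20 such groups. The scaled length covered at the 15 endothelial genes was 22.7 kb in sham 4, against 26.6 to 27.1 kb in the other sham libraries. At the 15 genes of mural cells and fibroblasts it was 9.27 kb in BCAS 2, against 11.3 to 11.4 kb in the other BCAS libraries. At the 15 inhibitory neuron genes it was 15.6 kb in BCAS 4, against 18.2 to 18.7 kb. The distal BCAS-only regions were removed from all of these sums.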

How the results depend on the processing

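Of 104 alternative values 87 kept their direction and their side of the threshold or their size. The tolerance for counts was wide, so that 1496 against 1045 distal BCAS-only regions was taken as kept. The PU.1 test of other distal peaks was taken as kept because its adjusted p stayed above 0.05. With 1 library left out that outcome was fixed in advance. Of the values for shorter loci 8 moved and 7 were kept. The PU.1 share of distal BCAS-only regions was 9.86% within 50 bp of the summit, against 1.68% of all distal regions, and the median distance was 16.9 kb when the TSS of every gene counted. Without scaling, 213 of 17057 gene loci were called longer and 1 shorter in BCAS libraries, and 13 of 770 nearest genes were called longer. Leaving out 1 library at a time gave 1070 to 1496 distal BCAS-only regions, a PU.1 share of 13.4 to 16.1%, a median distance of 33.3 to 35.5 kb, 288 to 664 longer and 18 to 85 shorter loci, and 30 to 66 longer nearest genes. The difference in PU.1 share of other distal peaks was 0.54 to 0.61 points with 1 library left out, 0.71 at a −log10 q of at least 5, 0.73 at equal list length and 0.46 within 50 bp, with adjusted p from 0.0653 to 0.183 over all of these, and 3 against 4 libraries cannot give an exact permutation p below 0.0571. The difference in distal share was -0.60 to 0.17 points with 1 library left out, turning without sham 3, -0.69 at a −log10 q of at least 5 and -0.56 at equal list length. The cause of these changes was not tested.

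With the replicate number as a block, 791 of 17032 loci were called longer and 147 shorter, and 77 of 770 nearest genes longer. Same-numbered libraries deviated together with correlations of -0.16, -0.01, -0.10 and 0.14 across genes, so the numbers do not pair the libraries. The files hold peaks only, so absence of a peak is not absence of signal, and weak regions depend most on list length.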

Other observations

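Beyond protein-coding genes, the nearest TSS of any type belonged to a protein-coding gene for 425 distal BCAS-only regions (40.7%), to a lincRNA for 216 (20.7%), to a processed pseudogene for 199 (19.04%) and to a miRNA for 35.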
